A study of Mus musculus with 13 samples.

Results

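The genes described here encode the subunits of oxidative phosphorylation that are carried by the nuclear genome. They were measured in germ cells of the mouse fetal ovary with and without genetic deletion of the glucocorticoid receptor (GR, encoded by *Nr3c1*). Members were chosen by name alone: a gene outside the mitochondrial chromosome had to have a GENCODE M21 name of a subunit of complex I (*Nduf*), complex II (*Sdh*), complex III (*Uqcr*), complex IV (*Cox4* to *Cox8*) or complex V (*Atp5*), and at least 10 counts over all libraries together. Of the 55335 genes in the count table, 88 had such a name and 79 of these reached the count minimum. The members comprised 35 of 39 named genes of complex I, 4 of 4 of complex II, 8 of 8 of complex III, 15 of 19 of complex IV and 17 of 18 of complex V. All but 1 of the 79 were annotated as protein-coding, and the exception was *Cox6c2*, annotated as a processed pseudogene. *Ndufa4* is counted with complex I by its name, although its protein is now known as a subunit of complex IV.

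At E17.5 the ovaries of each female embryo were dissociated and germ cells were isolated by FACS for a GFP transgene driven by *Pou5f1* (Tg(Pou5f1-EGFP)2Mnn), which all groups carried. Each embryo gave 1 library of 3' Tag-Seq, in which a read marks the 3' end of a polyadenylated transcript. The constitutive cross gave 3 WT and 3 KO embryos, the KO embryos being homozygous for a GR null allele derived from Nr3c1tm1.1Jda, which lacks exon 3 in the whole body. The conditional cross gave 3 Cre-negative embryos homozygous for the exon 3 floxed allele (flox) and 4 embryos with the same floxed alleles and a tamoxifen-inducible Cre expressed from the germ cell gene *Pou5f1* (Pou5f1tm1.1(cre/Esr1*)Yseg, cKO). All dams of the conditional cross, and none of the constitutive cross as far as the labels say, received 125 μg / g tamoxifen at E10.5, so that cross, alleles and tamoxifen cannot be told apart. The comparisons ask whether deletion of GR in the whole embryo, or its intended deletion in the germ cells alone, changed the transcripts of the respiratory chain. In bulk libraries of this kind, fewer cells with a transcript and less of it per cell cannot be told apart.

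Oxidative phosphorylation is carried out by 5 multi-subunit complexes of the inner mitochondrial membrane. Complex I (NADH dehydrogenase) and complex II (succinate dehydrogenase) pass electrons to ubiquinone, complex III (cytochrome bc1) passes them to cytochrome c, and complex IV (cytochrome c oxidase) passes them to oxygen, while complex V (ATP synthase) uses the proton gradient that complexes I, III and IV build to make ATP. Most subunits are nuclear-encoded and are imported after translation, whereas a small catalytic core is encoded by mitochondrial DNA. Nuclear respiratory factor 1 (NRF1), the ETS factor GABPA (nuclear respiratory factor 2) and YY1 are known regulators of the promoters of these nuclear genes. Growing oocytes are rich in mitochondria and are thought to rely on oxidative metabolism more than the somatic cells around them do. Whether this holds for germ cells at E17.5 was not measured here, where no somatic cells were profiled beside them.

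Sequences that these regulators are known to recognise were looked for in the promoters, since all members share a pathway that is known to be co-regulated through them. RefSeq promoter windows on GRCm38.p6, which run from 250 bases before to 50 bases after the transcription start, could be matched to 66 of the 79 members. The NRF1 core GCGCATGCG, on either strand, was present in a window of 8 of 66 members (12.1%), compared with 1.95% of the 27025 genes with a promoter window and 4.11% of the 9693 genes with a window that were tested here for expression. The ETS sequence CCGGAAG was present in 16 members (24.2%), compared with 9.93% of all genes and 20.2% of the tested genes. The YY1 sequence AANATGGCG was present in 10 members (15.2%), compared with 2.76% of all genes and 5.96% of the tested genes. At least 1 of the 3 sequences was found in 29 of the 66 members (43.9%), and in 13.5% of all genes and 27.6% of the tested genes. These shares are descriptions of letters in a window, and the members with at least 1 of the sequences had a median level of 142 CPM (counts scaled to library size) beside 128 CPM for the 37 without.

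The highest members that hold each sequence are shown because they let the matches be read directly. Each line gives 10 bases on either side of the match, 5′ to 3′ along the gene, with the matched letters in capitals. The NRF1 matches lie in chr5:108434431-108434459 (*Atp5k*, minus strand), chr5:115349102-115349130 (*Cox6a1*, minus strand) and chr10:80406808-80406836 (*Uqcr11*, minus strand). The ETS matches lie in chr5:108434371-108434397 (*Atp5k*, minus strand), chr5:115348958-115348984 (*Cox6a1*, minus strand) and chr4:116075064-116075090 (*Uqcrh*, minus strand). The YY1 matches lie in chr3:51408915-51408943 (*Ndufc1*, minus strand), chr5:145191500-145191528 (*Atp5j2*, minus strand) and chr17:33824617-33824645 (*Ndufa7*, plus strand).
Atp5k, NRF1: tttcactgcgGCGCATGCGcctttctggc
Cox6a1, NRF1: caggaacgggGCGCATGCGcgctctcgct
Uqcr11, NRF1: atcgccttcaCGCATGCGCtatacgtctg
Atp5k, ETS: ctcagttgagCTTCCGGcgcgaaggtc
Cox6a1, ETS: cccatttccgCTTCCGGcgcgccggtg
Uqcrh, ETS: gtatgccgcaCTTCCGGccaggtcgcc
Ndufc1, YY1: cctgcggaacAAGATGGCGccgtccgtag
Atp5j2, YY1: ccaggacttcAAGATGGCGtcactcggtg
Ndufa7, YY1: gagcggaaggAATATGGCGtccgctactc

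*Atp5k* and *Cox6a1* appear under both NRF1 and ETS, and 4 members held both sequences (*Atp5k*, *Atp5l*, *Cox6a1* and *Uqcr11*). The centre of the match was within 50 bases of the start in 8 of the 9 stretches, the exception being the NRF1 match of *Cox6a1*, 158 bases before the start. The YY1 sequence searched for itself contains an ATG, so its matches in *Ndufc1*, *Atp5j2* and *Ndufa7* hold one by construction. The palindromic consensus of the glucocorticoid response element was found in 0 of the 66 members' windows and in 0.259% of all genes with a window, which says only that these letters are not in these windows.

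Library totals ran from 2048706 to 3674989 counts. The 10 fetal oocyte markers checked, including *Ddx4*, *Dazl* and *Sycp1*, were all detected and summed to 11808 to 19195 CPM per library, against 56.6 to 148 CPM for 12 markers of ovarian somatic cells, 0 to 1323 CPM for 7 erythroid genes and 0 to 8.75 CPM for 4 macrophage genes. *Nr3c1* itself had 29.2 to 58.7 CPM in WT, 26.3 to 73.4 CPM in KO, 46.5 to 104 CPM in flox and 30.1 to 72.8 CPM in cKO germ cells. Its log2 fold change was 0.0 in KO against WT (standard error 0.53) and -0.32 in cKO against flox (standard error 0.5). Tags at the 3' end lie outside exon 3, so they do not read the deleted bases. The paper reported loss of GR in KO tissue by immunofluorescence, immunoblot and qRT-PCR, and less *Nr3c1* transcript in single-cell RNA-seq of KO ovaries. The KO libraries here showed no such drop in *Nr3c1* tags, and the reason was not tested. For the conditional deletion in female germ cells the paper describes no check of GR loss. How completely GR was lost in the cKO libraries was not measured here. The replicates are separate embryos.

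Transcripts of the nuclear-encoded subunits made up 1.88% ± 0.238 of the counts of a library (SD, n = 13). Their summed level was 16906, 16516 and 19955 CPM in the WT libraries, 16281, 19512 and 20271 CPM in the KO libraries, 25825, 16831 and 19732 CPM in the flox libraries, and 20075, 16153, 18059 and 19479 CPM in the cKO libraries. The groups overlapped, and flox replicate 1 stood above the other 12 libraries. It held the highest level of 20 of the 79 members, and the 76 members tested below lay a median of 0.52 above their own 13-library mean on the log2(CPM + 1) scale, whereas the other libraries lay between -0.18 and 0.15. The same library also had the highest erythroid level, 1323 CPM, and the lowest somatic level, 56.6 CPM, and the part of either in the members' level was not tested. Complex I contributed 39.9% of the members' tags, complex V 29.3%, complex IV 18.7%, complex III 7.53% and complex II 4.57%. The numbers of members in the complexes stand in the same order. The median member had 142 CPM in complex I, 237 in complex II, 195 in complex III, 87.8 in complex IV and 161 in complex V. For comparison, the protein-coding genes of the mitochondrial genome, of which 8 of 13 had counts, summed to 24307 ± 5984 CPM (SD, n = 13). *mt-Nd3*, *mt-Nd4l*, *mt-Co3*, *mt-Atp6* and *mt-Atp8* had 0 counts, and *mt-Co2* had 8 in all. How many of their tags went uncounted cannot be told from these counts, so the sum may understate the mitochondrial transcripts.

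**Figure D1:**
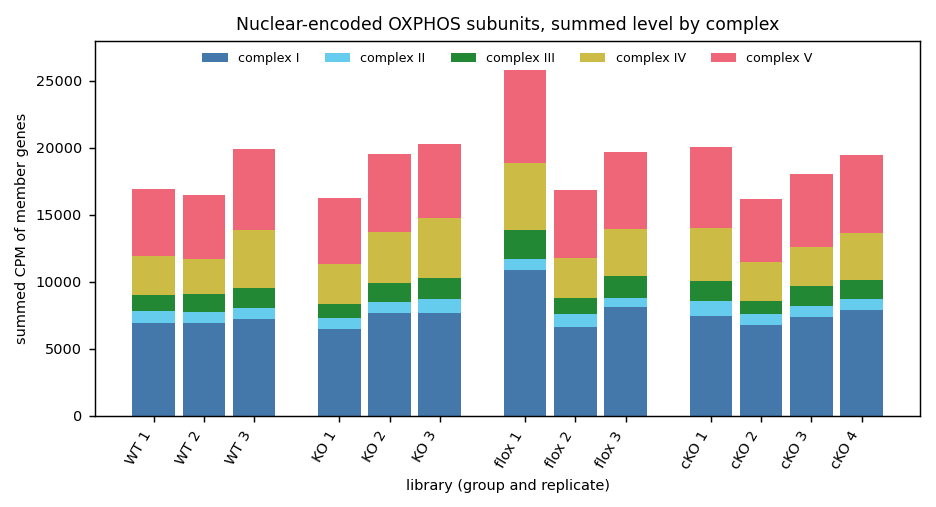
Summed level of the members in CPM (y axis) in each of the 13 libraries (x axis, by group and replicate), stacked by complex. The sums run from 16153 CPM in cKO replicate 2 to 25825 CPM in flox replicate 1, and complex I is the largest block in every library.

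Most members were strongly represented. The mean level exceeded 100 CPM for 53 members, lay between 10 and 100 CPM for 19 and was under 10 CPM for 7, and 71 of the 79 were counted in all 13 libraries. The median member stood at the 88.5th percentile of all tested genes. The 10 highest members took 45.2% of the members' tags. Over the 13 libraries, the members above 100 CPM had a median coefficient of variation of 30.1%, close to the 28.4% of all 2424 tested genes above that level. The steadiest was *Atp5a1*, the catalytic-head alpha subunit of ATP synthase, at 16.1%.

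The highest members by CPM were mostly small accessory subunits. *Cox6c*, a small subunit of cytochrome c oxidase, had 1140 ± 270 CPM (SD, n = 13), *Ndufc1*, an accessory subunit of complex I, had 979 ± 267 CPM, and *Atp5f1*, the peripheral stalk subunit b of ATP synthase, had 962 ± 221 CPM. *Ndufa6* (complex I) followed with 949 ± 276 CPM, *Atp5g3*, which encodes the c subunit of the proton-driven ring, with 916 ± 286 CPM, and *Atp5k*, the e subunit at the dimer interface, with 875 ± 209 CPM. Neighbours in this order differed by less than 1 SD of either. A 3' tag is in principle made once per transcript, so CPM was the main scale. Levels of different genes were also compared per kb of annotated exon. On that scale *Atp5k* was highest (1421 CPM per kb), followed by *Ndufa1* (1125 CPM per kb) and *Ndufa2* (1025 CPM per kb), and 6 of the 10 highest members by CPM were also among the 10 highest per kb. The other high members of their complexes were *Sdha* (387 CPM) and *Sdhb* (288 CPM), the flavoprotein and iron-sulfur subunits of complex II, *Uqcrh* (309 CPM) and *Uqcr10* (254 CPM) of complex III, and *Cox7c* (776 CPM) of complex IV.

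The core subunits described here, which carry redox centres or catalytic sites, were counted in every library. In complex I, *Ndufv1*, which binds NADH and flavin, had 210 ± 48.3 CPM (SD, n = 13), *Ndufv2* had 163 ± 30.8 CPM and *Ndufs7* had 126 ± 30.3 CPM. Lower levels were counted for *Ndufs3* (32.9 ± 13.1 CPM), *Ndufs8* (28.9 ± 19.7 CPM) and *Ndufs1* (24.5 ± 24.6 CPM), which encodes the largest iron-sulfur subunit. The Rieske iron-sulfur protein of complex III, *Uqcrfs1*, had 128 ± 49.95 CPM. For ATP synthase, *Atp5a1* had 659 ± 106 CPM and *Atp5b*, the catalytic beta subunit, had 257 ± 65.7 CPM, or 210 and 60.8 CPM per kb.

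**Figure D2:**
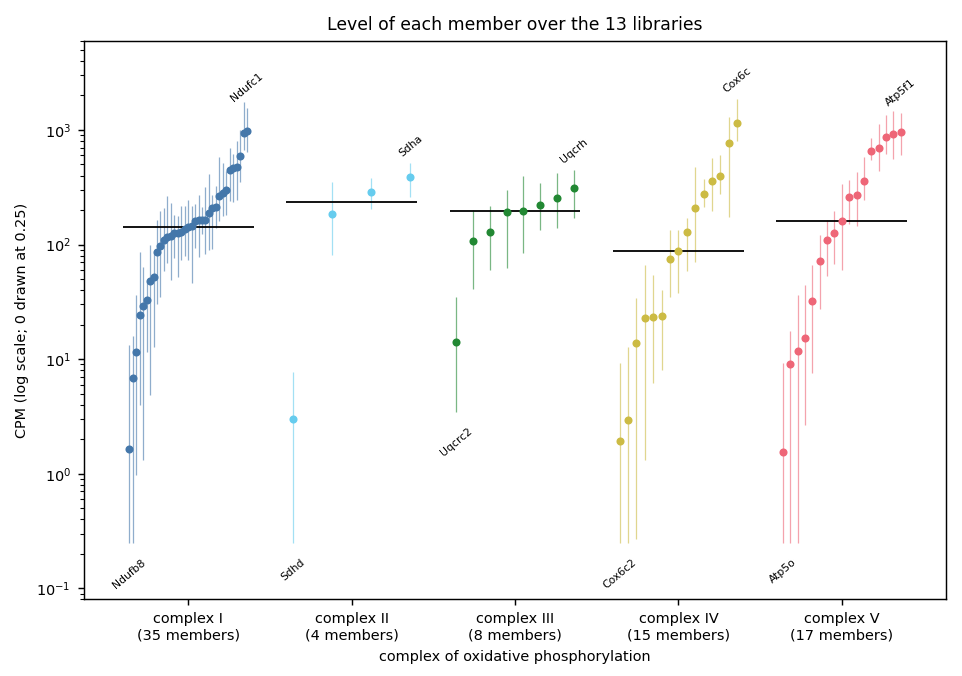
Mean CPM of each of the 79 members over the 13 libraries (points, log scale) with the lowest and highest library (vertical lines), in rising order within each complex (x axis), and the median member of each complex (horizontal lines). The highest and lowest member of each complex are named, and levels of 0 are drawn at 0.25.

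Low values need the way of counting beside them. The deposited counts were made over whole gene intervals, and 12922 genes in the table had an interval that other genes covered completely, and 0 of these had a count. Such is the case for *Cox4i1*, the ubiquitous form of the largest nuclear-encoded subunit of complex IV, for *Cox6a2*, its striated muscle subunit, and for *Ndufa13*, *Ndufb4c* and *Ndufs6b*, and each of these was listed at 0 in all 13 libraries. A second *Atp5o* gene, with 98.3% of its interval in other genes, also had 0 counts. The remaining named genes under the minimum were *Cox8b* with 0 counts, *Ndufa11b* with 1 and *Cox4i2*, the hypoxia-responsive form of subunit IV, with 5. Just inside the minimum stood *Atp5o* with 44 counts, *Ndufb8* with 58, *Cox6c2* with 68 and *Sdhd*, which anchors complex II in the membrane, with 98. Of the 79 members, 33 shared part of their interval with another gene. In 6 members most of the last 300 transcript bases, where tags are expected, lay in another gene (*Atp5o*, *Cox5a*, *Ndufb6*, *Ndufb8*, *Ndufs1* and *Uqcrc2*). Their mean levels were 1.54 to 24.5 CPM with a median of 12.7 CPM, whereas the other 73 members had a median of 162 CPM. How many tags of these 6 went uncounted cannot be told from the table. A near-identical annotated copy of the 3' end was found for 7 members, including *Cox7c* and *Atp5g2*, whose reads may be shared with the copy.

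Several subunits are encoded by alternative genes with tissue-specific expression, and the share of a family's tags that its leading gene carried differed between families. *Atp5g1*, *Atp5g2* and *Atp5g3* encode the same mature c subunit behind different import sequences. *Atp5g3* supplied 95.4% of the family's CPM on average (90.3% to 99.1% over the 13 libraries), with 420 CPM per kb against 6.54 CPM per kb for *Atp5g1* and 5.40 CPM per kb for *Atp5g2*. *Cox6b1* supplied 83.5% of its family (67.4% to 94.6%), with 180 CPM per kb against 21.5 CPM per kb for *Cox6b2*, the testis form. *Cox7b* had 172 CPM per kb and supplied 88.2% (61.9% to 97.6%), against 43.4 CPM per kb for the testis form *Cox7b2*. *Cox8a* had 120.5 CPM per kb and supplied 76.9% (43.9% to 99.0%), against 49.6 CPM per kb for *Cox8c*, also a testis form. *Cox6b2* (766 counts in all), *Cox7b2* (783 counts) and *Cox8c* (731 counts) were each counted in all 13 libraries of female germ cells. *Cox8b*, the heart and muscle form, had 0 counts and shares its interval with no other gene, and 3 counts would be 0.816 to 1.46 CPM in these libraries. *Cox7a1*, the other heart and muscle form, had 105 counts in 5 of 13 libraries (5.47 CPM per kb), beside 377 CPM per kb for *Cox7a2* and 187.5 CPM per kb for *Cox7a2l*, which supports the joining of complexes III and IV into supercomplexes. *Cox6a1*, the liver-type form of its subunit, had 395 ± 87.7 CPM (SD, n = 13), and *Cox6a2* could not be counted. The shares are of CPM, the main scale, and their ranges run from the lowest to the highest library. The values per kb also depend on annotated exon length, so their ratios differ from those of CPM. In CPM *Cox7b* had 209 against 23.5 for *Cox7b2*, and *Atp5g3* had 916 against 32.1 for *Atp5g1*. The limit of 3 counts covers counting error only and uses raw library totals.

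**Figure D3:**
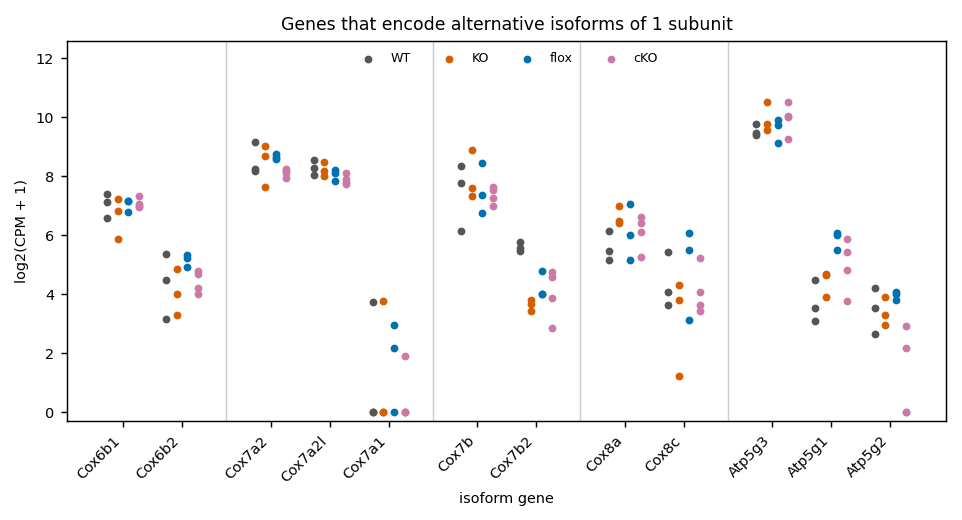
Level of genes that encode alternative forms of 1 subunit, as log2(CPM + 1) (y axis), with 1 point per library, coloured by group. *Atp5g3* lies above *Atp5g1* and *Atp5g2* in all 13 libraries, and *Cox7b2* lies higher in the 3 WT libraries than in the other 10.

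In KO against WT, no member was called. The low-count filter kept 76 members (all but *Cox6c2*, *Atp5o* and *Ndufb8*). Of these, 0 had an adjusted p of 0.05 or less in the quasi-likelihood test of edgeR. Benjamini-Hochberg adjustment ran over 13086 genes, of which 0% were called. DESeq2 and limma's voom also called 0 members. DESeq2 was run without that filter, so its counts here and below are over 79 members. The lowest adjusted p of a member was 0.847. In edgeR an unadjusted p under 0.05 was reached by 1 member with a higher level in KO and 4 with a lower level. Over all tested genes edgeR gave 2.36% higher and 3.45% lower. DESeq2 gave 6 members and voom 5, and the all-gene shares of these 2 tools are not given here. In edgeR the count of 5 became 3 without WT replicate 2 and 9 without WT replicate 3. The median log2 fold change of the members was 0.0003 beside -0.031 over all genes, with 38 members above 0 and 38 below. By complex the medians were -0.0021 for complex I, 0.40 for complex II, 0.09 for complex III, 0.03 for complex IV and -0.17 for complex V. The median standard error was 0.38, compared with 0.85 over all genes, and for 24 of 76 members (31.6%) the 95% confidence interval of the log2 fold change lay between -1 and 1.

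Groups did not overlap for 1 member higher in KO and 9 lower, against 3.79% of all tested genes higher and 5.67% lower. The 9 were *Ndufs1*, *Cox7b2*, *Ndufb7*, *Uqcrq*, *Atp5h*, *Atp5mpl*, *Ndufa11*, *Ndufv2* and *Ndufv1*, which belong to 4 of the 5 complexes. In each of these the exact two-sided permutation p was 0.1, the smallest that 3 embryos against 3 allow and the value that non-overlap by itself fixes.

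*Cox7b2*, the testis form of subunit VIIb, had 43.4, 54.0 and 47.0 CPM in the WT libraries and 9.88, 13.1 and 11.9 CPM in the KO libraries. The WT libraries stood apart from all other groups, since flox had 15.2, 26.7 and 15.0 CPM and cKO had 26.3, 13.7, 23.1 and 6.21 CPM. On the log2 scale KO lay at -2.05 relative to WT (standard error 0.77, adjusted p = 0.847 in edgeR), and cKO against flox gave -0.13 (95% confidence interval -1.56 to 1.30). *Ndufv1*, the NADH-binding subunit, had 238, 249 and 229 CPM in WT and 194, 154 and 91.5 CPM in KO, a log2 fold change of -0.70 (standard error 0.31, adjusted p = 0.847 in edgeR). All 3 KO libraries lay below all WT libraries, and without KO replicate 3 the change was -0.45.

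*Ndufs1* had 20.4, 86.0 and 12.5 CPM in WT and 4.56, 8.27 and 3.96 CPM in KO. Its log2 fold change of -2.81 (standard error 1.00, adjusted p = 0.847 in edgeR) was -1.54 without WT replicate 2, the highest library, and it is one of the members whose 3' end lies in another gene. *Atp5l*, the g subunit of ATP synthase, had 9.29, 36.3 and 2.18 CPM in WT and 0, 2.92 and 0 CPM in KO, with overlapping groups and a log2 fold change of -4.01 (standard error 1.55), which was -2.53 without WT replicate 2 and -8.3313 without KO replicate 2. *Cox8a*, the ubiquitous form of subunit VIII, was the member with a higher level in every KO library, with 70.4, 34.9 and 43.5 CPM in WT against 84.8, 89.5 and 125 CPM in KO, a log2 fold change of 1.01 (standard error 0.48, adjusted p = 0.847 in edgeR). Its flox libraries ranged from 35.1 to 133 CPM and overlapped both groups. *Atp5h*, the d subunit of the stalk, had 84.7 ± 13.1 CPM in WT and 44.3 ± 14.8 CPM in KO (SD, n = 3 each). The next members by p with higher levels in KO were *Ndufa8* (log2 fold change 0.68), *Ndufc2* (0.52), *Cox7c* (0.69) and *Atp5g3* (0.46), whose groups overlapped. Single libraries moved these values: *Atp5g3* gave 0.13 without KO replicate 2, *Cox7c* 0.26 without WT replicate 2 and 1.48 without WT replicate 3, *Ndufa8* 0.45 and 1.28 without the same WT libraries, and *Ndufc2* 0.34 and 0.73. Beside these values, the 4 macrophage genes summed to 0.478 to 2.45 CPM in WT and 5.70 to 8.75 CPM in KO, and the 3 endothelial genes to 31.0 to 40.6 CPM in WT and 1.95 to 25.5 CPM in KO, and their part in the members' values was not tested.

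In cKO against flox, 0 members were called by edgeR, DESeq2 or voom, as were 0% of all genes in edgeR. The lowest adjusted p of a member was 0.9998. In edgeR an unadjusted p under 0.05 was reached by 1 member with a higher level in cKO and 4 with a lower level. Over all genes edgeR gave 1.32% higher and 1.87% lower. DESeq2 gave 7 members and voom 8, without all-gene shares of their own to set beside them. The edgeR count became 2 without cKO replicate 1, 9 without cKO replicate 3 and 13 without flox replicate 2. The members' median log2 fold change was -0.14 beside -0.01 over all genes, with 31 above 0 and 45 below. It was 0.01 without flox replicate 1, the library with the highest member sum, so the sign of the median rested on that library. The medians by complex were -0.17 for complex I, 0.47 for complex II, -0.19 for complex III, -0.18 for complex IV (12 of 14 members below 0) and -0.02 for complex V. For 32 of 76 members (42.1%) the 95% confidence interval lay between -1 and 1. Erythroid genes, of which 4 of 7 had counts and *Hbb-y*, *Hba-x* and *Alas2* were at 0, summed to 282 to 1323 CPM in flox and 76.9 to 191 CPM in cKO, without overlap, and their part in the members' values was not tested.

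**Figure D4:**
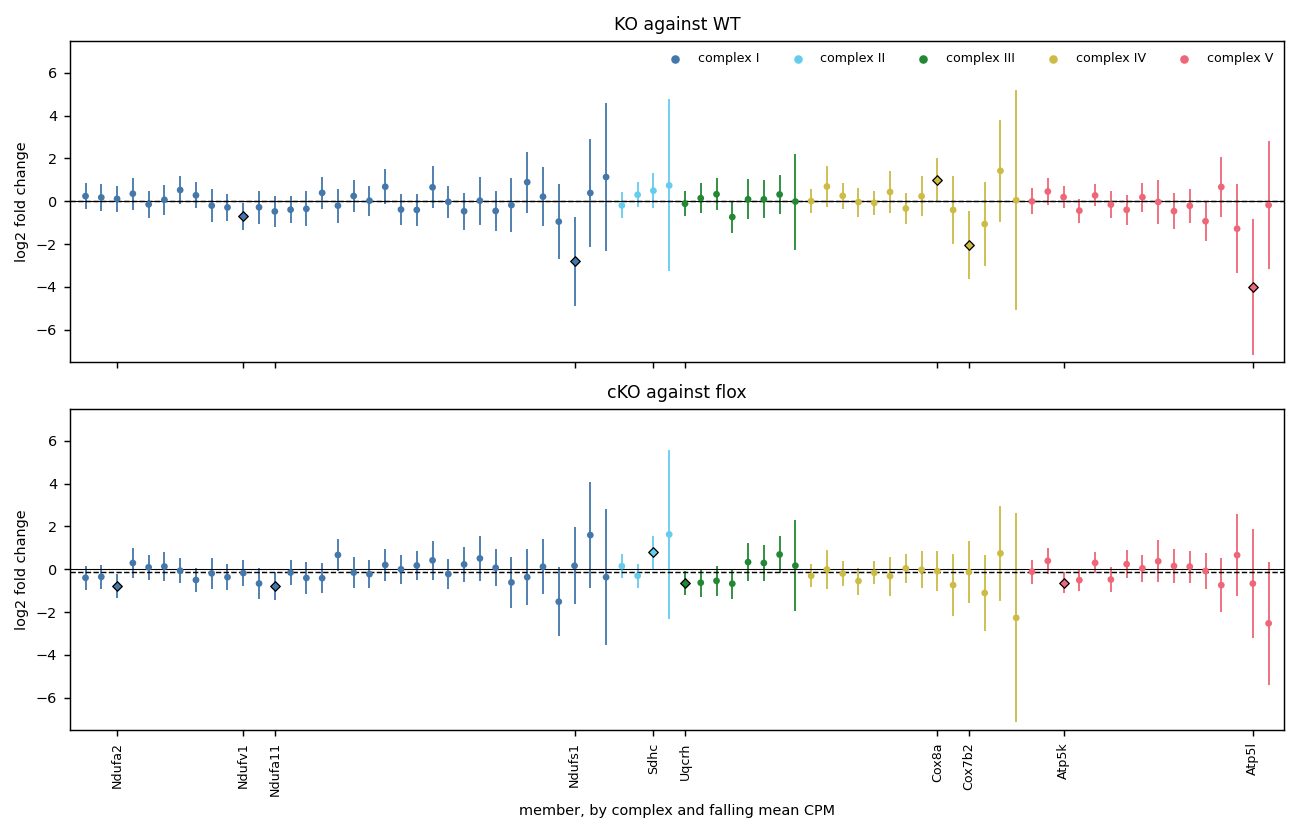
Log2 fold change (y axis) with its 95% confidence interval for each of the 76 tested members (x axis, by complex and falling mean CPM), for KO against WT (top) and cKO against flox (bottom). Diamonds with a dark edge mark the 5 members in each comparison with an unadjusted p under 0.05, none of which passed adjustment, and these members are named on the x axis. The dashed line is the members' median.

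Groups did not overlap for 2 members higher in cKO (*Sdhc* and *Atp5a1*) and 6 lower (*Uqcrh*, *Atp5k*, *Cox6b2*, *Cox7a2*, *Ndufa12* and *Atp5g2*), against 2.18% and 2.79% of all tested genes. *Uqcrh*, the hinge protein that meets cytochrome c on complex III, had 451, 342 and 362 CPM in flox and 169, 245, 289 and 276 CPM in cKO. All cKO libraries lay below all flox libraries, which by itself fixes the two-sided exact permutation p at 0.0286, the smallest that 3 against 4 allow. Its log2 fold change came to -0.65 with a standard error of 0.27 (adjusted p = 0.9998 in edgeR), and -0.52 without flox replicate 1. *Atp5k* had 1360, 944 and 1079 CPM in flox and 617, 720, 777 and 822 CPM in cKO, again without overlap, with a log2 fold change of -0.62 (standard error 0.24, adjusted p = 0.9998 in edgeR) that was -0.46 without flox replicate 1. In the constitutive cross *Atp5k* ranged from 758 to 808 CPM in WT and from 738 to 1171 CPM in KO. The flox libraries and KO replicate 3 lay above all WT libraries, and cKO replicates 1 and 2 lay below every library of the constitutive cross.

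*Sdhc*, the other membrane anchor of complex II, had 154, 120 and 103 CPM in flox and 354, 186, 161 and 167 CPM in cKO, a log2 fold change of 0.79 (standard error 0.38, adjusted p = 0.9998 in edgeR) that was 0.47 without cKO replicate 1. *Ndufa2* had 826, 582 and 1000 CPM in flox and 350, 460, 644 and 399 CPM in cKO, with a log2 fold change of -0.79 (standard error 0.28) and groups that overlapped through cKO replicate 3. *Ndufa11* had 217 ± 89.6 CPM in flox (SD, n = 3) and 125 ± 32.6 CPM in cKO (n = 4), and its log2 fold change of -0.80 was -0.41 without flox replicate 1. *Atp5mpl*, another small subunit of ATP synthase, gave -0.51 and -0.27 without the same library. *Ndufa10* (0.67), *Uqcrc1* (0.69), *Atp5g3* (0.39) and *Ndufb6* (1.597, with the 3' end in another gene) were the next members with higher levels in cKO, with overlapping groups. *Ndufa10* gave 0.30 without flox replicate 3 and 1.08 without flox replicate 2, *Atp5g3* gave 0.20 without flox replicate 2, and *Ndufb6* gave 0.84 without cKO replicate 1 and 3.51 without flox replicate 1.

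The effects of whole-body and germ cell deletion were compared directly as the difference of the log2 fold changes, cKO against flox minus KO against WT. In edgeR 0 members and 0% of all genes were called, and 3 of 76 members had an unadjusted p under 0.05, against 4.39% of all genes. The count was 1 without cKO replicate 1, 7 without WT replicate 2 and 10 without flox replicate 2. The 3 members were *Atp5k* (-0.81, standard error 0.35), *Ndufs1* (2.98, standard error 1.32) and *Ndufa2* (-0.91, standard error 0.41), each with an adjusted p of 0.9999 in edgeR. DESeq2 and voom called 0, with 5 and 3 members under an unadjusted p of 0.05, without all-gene shares of their own. The standard errors of this difference had a median of 0.52, and 6 members had a 95% confidence interval between -1 and 1, so for the other 70 the interval did not exclude a difference of 2-fold or more between the models.

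The member with the lowest p in any comparison was found between the crosses. In the conditional against the constitutive cross edgeR called 0 members, and 1 of 13086 genes (0.00764%). In edgeR an unadjusted p under 0.05 was reached by 2 members, both higher, against 3.4% of all genes higher and 2.19% lower. DESeq2 gave 5 members and voom 4, without all-gene shares of their own. *Ndufa3*, an accessory subunit of complex I on chromosome 7 of mm10 from 3617373 to 3620327, had 78.8, 79.8 and 76.4 CPM in WT and 85.5, 68.6 and 76.1 CPM in KO, but 263, 90.6 and 142 CPM in flox and 129, 149, 130 and 158 CPM in cKO. All 7 libraries of the conditional cross lay above all 6 of the constitutive cross, which held for 1 of 76 members in this direction and 0.0993% of all genes, and for 0 members and 0.0611% of all genes in the other. The log2 difference was 0.98 (standard error 0.25). Its adjusted p was 0.484 in edgeR, 0.04994 in DESeq2 and 0.572 in voom, so DESeq2 alone called it. The share of all genes that DESeq2 called between the crosses is not given here, so this call has no background beside it. Over all alternatives the adjusted p ran from 0.04994 to 0.898. Without flox replicate 1 the difference was 0.73. *Atp5g1*, the minor c subunit gene, had 7.52, 10.51 and 21.2 CPM in WT, 24.0, 14.1 and 24.6 CPM in KO, 66.8, 44.9 and 64.0 CPM in flox and 12.8, 27.3, 42.2 and 57.6 CPM in cKO, with a log2 difference of 1.45 (standard error 0.47, adjusted p = 0.777 in edgeR). The crosses overlapped through cKO replicate 1.

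Over all members the median log2 difference between the crosses was 0.12 beside 0.03 over all genes, with 53 of 76 members above 0 (69.7%, against 52.8% of all tested genes). It was 0.01 without flox replicate 1. *Ndufa7* (0.42), *Ndufb9* (0.44) and *Atp5l* (1.91) were the next members with higher levels in the conditional cross, and *Cox7a2l* (-0.30), *Ndufa8* (-0.36), *Ndufa12* (-0.33), *Uqcrc2* (-0.86) and *Cox7b* (-0.37) were those with lower levels and the lowest p, and 0 of these reached an unadjusted p under 0.05. Leaving out single libraries moved *Cox7b* from -0.66 (without flox replicate 1) to -0.04 (without KO replicate 3), *Ndufa8* to -0.06 (without WT replicate 3), *Uqcrc2* to -0.41 (without KO replicate 1), *Ndufa12* to 0.01 (without WT replicate 2) and *Atp5l* to 4.09 (without KO replicate 2). Erythroid genes summed to 76.9 to 1323 CPM in the conditional cross and 0 to 238 CPM in the constitutive cross, and endothelial genes to 37.6 to 81.2 CPM and 1.95 to 40.6 CPM. All 3 tested erythroid genes (median log2 difference 1.28) and the 1 tested endothelial gene, *Pecam1* (1.596), lay above 0, and their part in the members' values was not tested. For 56 of 76 members (73.7%) the 95% confidence interval of the cross difference lay between -1 and 1.

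**Figure D5:**
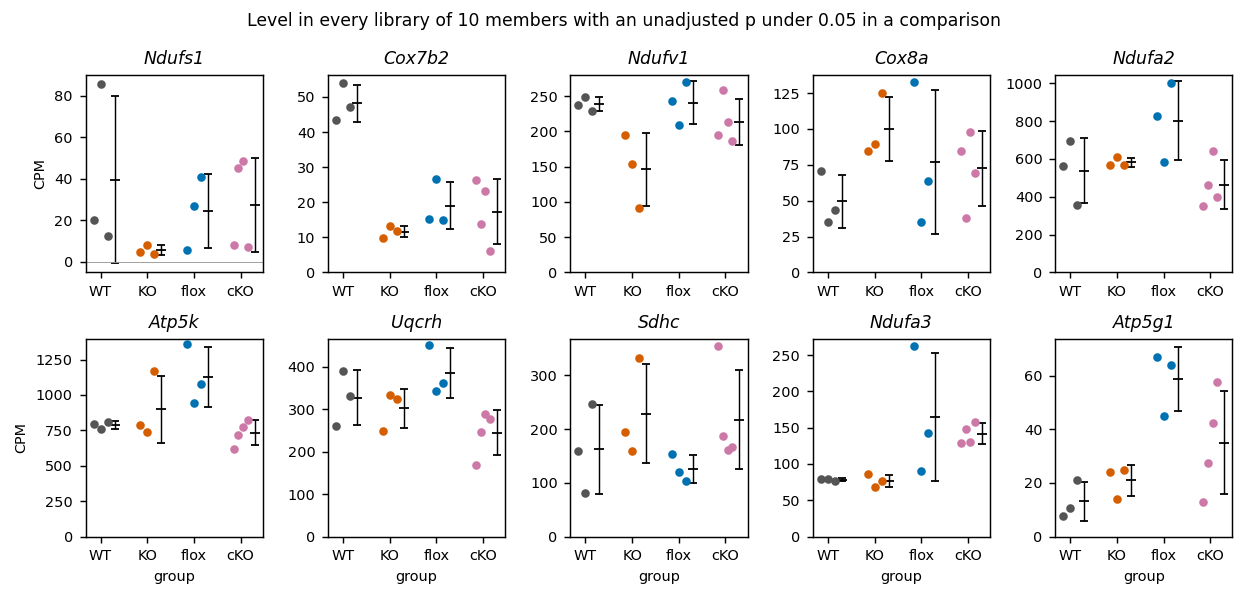
CPM (y axis, from 0) in each library of WT, KO, flox and cKO germ cells (x axis) for 10 members with an unadjusted p under 0.05 in at least 1 comparison, with the mean and SD of each group beside the points. The WT libraries of *Cox7b2* lie between 43.4 and 54.0 CPM, above all others, and *Ndufa3* is below 90 CPM in all 6 libraries of the constitutive cross.

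Other genes of the pathway showed the same absence of calls. Subunits and carriers outside the name rule (*Ndufab1*, *Cyc1*, *Cycs* and *Ndufa4l2*) had 3 of 4 members tested, assembly factors of the complexes had 37 of 47, regulators of mitochondrial biogenesis had 15 of 19, enzymes of the tricarboxylic acid cycle and pyruvate dehydrogenase had 16 of 16, and the protein-coding genes of the mitochondrial genome had 7 of 13. In edgeR 0 of these were called in KO against WT, in cKO against flox, between the crosses or in the difference of the effects, and 0 had an unadjusted p under 0.05 in KO against WT or in cKO against flox. DESeq2 and voom were not read for these lists. Between the crosses *Nubpl*, an assembly factor that delivers iron-sulfur clusters to complex I, and *mt-Co1*, the catalytic subunit of complex IV, had an unadjusted p under 0.05 with lower levels in the conditional cross. *Tfam*, which packages and transcribes mitochondrial DNA, had one in the difference of the effects, with 119 ± 30.8 CPM in WT, 197 ± 39.0 CPM in KO and 170 ± 42.1 CPM in flox (SD, n = 3 each) and 128 ± 54.5 CPM in cKO (n = 4), where the difference was -1.13 (standard error 0.50, adjusted p = 0.9999 in edgeR). The regulators whose sequences were searched for were themselves counted in all groups, with 95.1 ± 32.1 CPM for *Nrf1*, 49.0 ± 27.3 CPM for *Gabpa* and 311 ± 81.8 CPM for *Yy1* (SD, n = 13).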

How the data were processed

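Female Pou5f1-GFP-positive germ cells of single E17.5 embryos were profiled in 13 libraries. The authors deposited a table of raw read counts per gene, made from QuantSeq 3' FWD reads that were trimmed with cutadapt, aligned to mm10 with STAR 2.6.0 and counted with featureCounts 1.6.3. The gene annotation and the strand setting of the counting are not given in the sources used here. No molecular identifiers are described. The deposited comparison tables hold the authors' log2 fold changes and p-values and were not used.

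Counts were fitted for all 13 libraries together with edgeR 4.0.16 (quasi-likelihood test, 1 mean per group, TMM normalization) in R 4.3.3 after a filter on low counts (filterByExpr, minimum count 10, minimum total 15). Benjamini-Hochberg adjustment ran over 13086 genes, and a gene was called at an adjusted p of 0.05 or less. CPM values use the TMM-scaled library size. DESeq2 1.42.0 and limma 3.58.1 (voom), other normalizations and filters, a replicate block and leaving out each library were alternatives. Single genes were also compared by exact two-sided permutation tests. On simulated counts with 200 changed genes, 24% of 4-fold and 58% of 16-fold changes were called for KO against WT, and 26% and 62.5% for cKO against flox. The changed genes were drawn at random from all tested genes, whose median standard error in KO against WT was 0.85, beside 0.38 for the members. These shares are therefore not those of the members, which were not simulated separately. Named members were up to 5 with the lowest p in each direction of KO against WT, cKO against flox and the crosses, the 2 highest and the lowest of each complex, the isoform families, the core catalytic subunits and those near the count minimum. Others were named after their values were seen. The members and lists were chosen with earlier results of these data known. Replicate numbers did not pair the libraries. The values of 1 core subunit are not reported here.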

Additional observations from a re-analysis of the deposited data

Results flagged for a closer look

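Of 44 member and complex levels examined for a library far from the rest of its group, 4 stood out, all in cKO, the only group with over 3 libraries. Chance gives about 1 in 20 for separate values, but the complex sums contain member levels, so these values were not separate. *Sdhc* had 354.2 CPM in cKO replicate 1 and 160.8 to 186.2 CPM in the other cKO libraries. *Ndufb8*, whose 3' end lies in another gene, had 13.16 CPM (38 counts) in cKO replicate 1 and 0 to 1.035 CPM in the others. The complex II sum, which includes *Sdhc*, was 1110 CPM in cKO replicate 1 and 810.9 to 837.9 CPM in the others. The complex III sum was 993.3 CPM in cKO replicate 2 and 1420 to 1489 CPM in the others.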

How the results depend on the processing

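The count of members called was 0 in every comparison under all alternatives run, except that DESeq2 called 1 between the crosses (*Ndufa3*). The share of all genes that DESeq2 called there is not given. Leaving out each library in turn moved the members' median log2 fold change from -0.0623 to 0.1628 for KO against WT, from -0.2504 to 0.0081 for cKO against flox, from 0.0137 to 0.1977 between the crosses and from -0.2871 to 0.0104 for the difference of the effects. With the replicate block the medians were 0.0474, -0.1323, 0.0888 and -0.1534 and 0 members were called, while same-numbered libraries had deviations correlated by only -0.0232 to 0.0636. Of the named genes' fold changes, *Ndufa12* between the crosses ranged from -0.4661 to 0.0141, the latter without WT replicate 2. Without members that share an interval or a near-identical copy, 43 remained, with 1.036% of all counts, or 0.466% for complex I, 0.04734% for complex II, 0.08976% for complex III, 0.1193% for complex IV and 0.3137% for complex V. Per kb of exon, 6 of the 10 highest members by CPM stayed in the top 10. With single libraries left out, the members with an unadjusted p under 0.05 numbered 3 (without WT replicate 2) to 9 (without WT replicate 3) in KO against WT, 2 (without cKO replicate 1) to 13 (without flox replicate 2) in cKO against flox, 2 to 5 between the crosses, and 1 to 10 for the difference of the effects. The causes were not tested. Groups of 3 and 4 embryos limit what could be called.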
